A study of Mus musculus with 12 samples.

Results

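The bile acid and sterol transporters of the liver, with the nuclear receptor pair that governs them, were followed as 10 genes in mice exposed to heat stress. The genes were taken by symbol (Slc10a1, Slco1b2, Slc10a2, Abcb11, Abcb4, Abcc2, Abcg5, Abcg8, Nr1h4 and Nr0b2), and all 10 were found among the 25239 genes of the count table. Their levels in the livers of heat-stressed mice were set against those of control mice, library by library, and the brains of the same experiment served as a tissue for comparison. All animals carried the WT genotype on a C57BL6/J background, were male per the study's methods and were 24 months old, so every value below belongs to aged mice and no young group was analysed here. Heat stress was given as 3 h per day for 15 days in a chamber at 40 ± 0.5 °C and 60 ± 5% relative humidity, and the other group is labelled only as control. Each tissue had 3 control and 3 heat stress libraries of messenger RNA sequencing, 12 in all. The study's methods give 3 animals per group and describe harvest of brain and liver, so both tissues of a group would share mice. Labels do not say whether brain and liver libraries with the same number came from the same mouse. In bulk tissue, fewer cells of a type and less RNA per cell cannot be told apart.

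Bile acids circulate between liver and intestine. Hepatocytes take them up from portal blood through carriers on the sinusoidal membrane, and pumps on the canalicular membrane export them into bile together with phospholipid, cholesterol and conjugated organic anions. The nuclear receptor FXR (Nr1h4) senses bile acids and induces SHP (Nr0b2), which represses bile acid synthesis, so that uptake, export and synthesis are adjusted to one another.

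The liver libraries held 10466198 to 15609040 counts and the brain libraries 10552686 to 14597197. Summed hepatocyte markers lay between 70450 and 112200 CPM (counts scaled to TMM-normalized library size) in every liver library, although Ass1, a urea cycle enzyme on that list, stayed between 0.906 and 1.63 CPM. The adult globin genes Hba-a1, Hba-a2, Hbb-bs and Hbb-bt were listed at 0 in all liver libraries, so a listed 0 in this table need not mean that a transcript was absent. A pair of liver libraries stood apart by skeletal muscle transcripts, whose summed markers reached 420 CPM in control replicate 1 and 2371 CPM in heat replicate 2 against 1.03 to 7.41 CPM in the other 4. The values of genes among the 10 that move when these libraries are left out are given beside the result. Summed Kupffer cell and leukocyte markers were 90.5 to 160 CPM in control and 118 to 209 CPM in heat stress livers, and summed endothelial markers 40.2 to 43.3 against 46.1 to 52.2 CPM. Most of the former sum came from Clec4f and Cd5l of Kupffer cells. Of its 6 genes, 2 were higher at an unadjusted p-value under 0.05, beside 2.97% of all genes tested in liver. These were Cd3e of T cells (0.245 to 0.559 CPM in control, 1.12 to 1.58 CPM in heat stress, edgeR p-value 0.00315, adjusted 0.465) and Nkg7 of cytotoxic lymphocytes (0.640 ± 0.506 and 1.80 ± 1.08 CPM, p-value 0.0323, adjusted 0.822). The part of these cell types in the results was not tested.

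At an adjusted p-value of 0.05, none of the 10 genes separated heat stress from control livers. That was true of the whole liver comparison, in which the quasi-likelihood test of edgeR, adjusted by Benjamini and Hochberg, called 0 of 12296 genes (0%). At an unadjusted p-value under 0.05, 718 of all genes (5.84%) and 2 of the 10 stood out, Slc10a2 with lower and Abcg5 with higher levels, against a background of 2.87% of genes lower and 2.97% higher. DESeq2 called 61 of 11732 genes (0.52%) and none of the 10. For 3 of the 10 genes the control and heat stress libraries did not overlap, lower for Slc10a2 and Abcb11 and higher for Abcg5, whereas 11.1% of all genes showed no overlap (5.73% lower and 5.38% higher). Across the 10 genes the median log2 fold change was 0.12, with 6 above 0 and 4 below, and it was 0.011 across all genes tested. Adjusted p-values of the 10 ranged from 0.424 to 0.984.

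**Figure D1:**
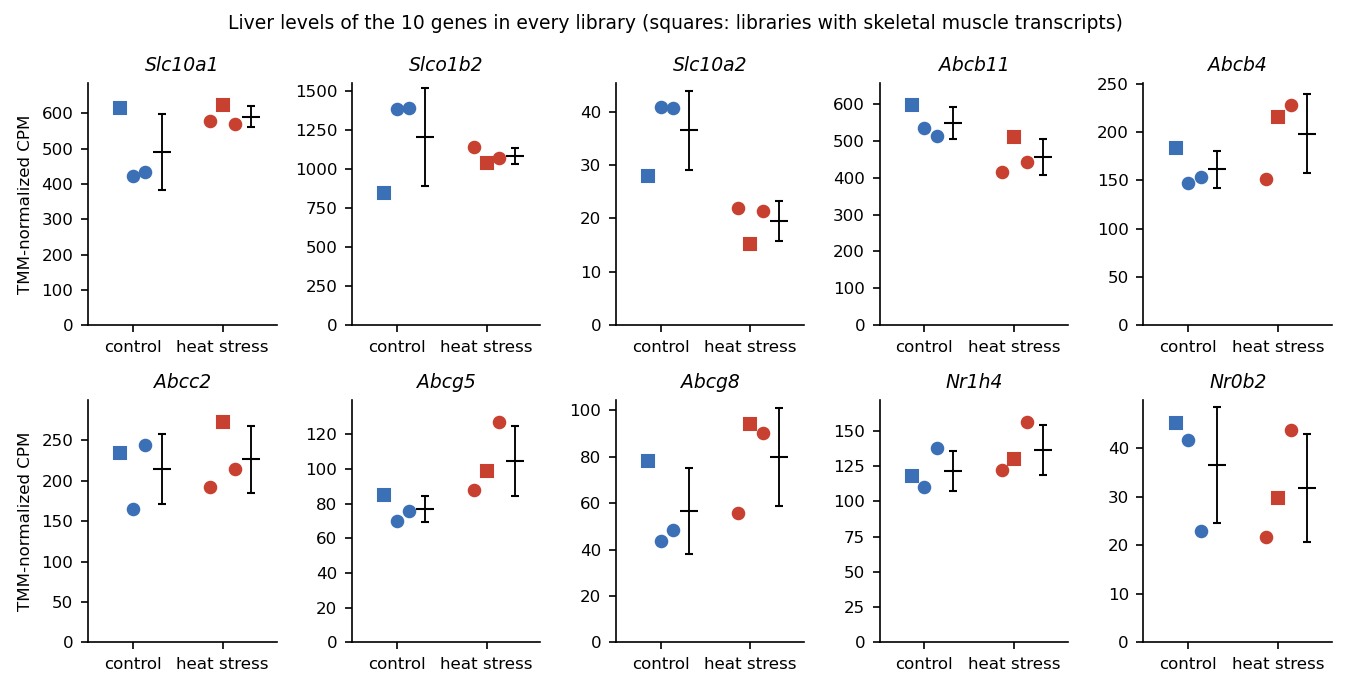
Liver level of each gene (TMM-normalized CPM, linear axis from 0) in 3 control and 3 heat stress libraries, 1 point per library, with the mean and SD beside each group. Squares mark control replicate 1 and heat replicate 2, which carry muscle transcripts. Control and heat stress points are separate for Slc10a2, Abcb11 and Abcg5 and overlap for the other 7 genes.

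Slc10a2 encodes ASBT, the apical sodium-dependent carrier that reclaims bile acids in the ileum and, within the liver, at the apical face of bile duct cells. It lies on the minus strand of chromosome 8 (chr8:5083219-5105351, GRCm38) and had the smallest p-value of the 10 genes. The stretch just upstream of its start is printed because an AT-rich palindrome, TTAAT and ATTAA with 1 base between them, is found in it. The sequence is that of RefSeq on GRCm38.p6 (chr8:5105352-5105537, minus strand, 5′ to 3′), with the palindrome in capitals.
Slc10a2 upstream: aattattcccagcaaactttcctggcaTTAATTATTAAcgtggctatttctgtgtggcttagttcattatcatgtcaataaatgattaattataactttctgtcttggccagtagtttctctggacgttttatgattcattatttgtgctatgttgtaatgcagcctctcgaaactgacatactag
Read on both strands, that palindrome was present in 40 of 32851 RefSeq promoter windows (0.122%), each running from 250 bases before to 50 bases after a start, and Slc10a2 was the only 1 of the 10 genes with it. The motif was chosen after the sequence had been seen, and a match describes letters and not binding.

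Control livers had 27.9, 40.9 and 40.7 CPM of Slc10a2, from 432, 501 and 437 counts. Heat stress livers had 22.0, 15.2 and 21.4 CPM, from 295, 218 and 271 counts. Every heat stress library was below every control library, and the lowest library of each group was the one with muscle transcripts. The mean was 36.5 ± 7.45 CPM in control and 19.5 ± 3.75 CPM in heat stress (SD, n = 3), a fold of 0.535 with a 95% interval of 0.381 to 0.751. On the log2 scale the difference was -0.90 with a standard error of 0.22, and edgeR gave a p-value of 0.00214 and an adjusted p-value of 0.424. DESeq2 gave -0.92 with an adjusted p-value of 0.0505.

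Whether Slc10a2 passed the threshold depended on the libraries kept and on the covariates of the model. The difference was -0.93 with an adjusted p-value of 0.0267 without both muscle-bearing libraries, -0.80 with 0.0308 when the muscle score entered as a covariate, and -1.08 with 0.0421 without control replicate 1 alone. In the other 13 of 16 alternative settings the adjusted p-value lay between 0.0505 and 1, while the direction was the same and the unadjusted p-value under 0.05 in all 16. Some liver columns carry an unexplained suffix, "2nd". Among libraries with it Slc10a2 was at 40.9 CPM in control against 22.0 and 21.4 in heat stress, and among those without it at 27.9 and 40.7 against 15.2.

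Bile duct cells are one place where Slc10a2 is made, and their markers were read in the same libraries. The 7 cholangiocyte markers together were at 46.2 to 82.4 CPM in control and 48.9 to 63.4 CPM in heat stress livers, with overlapping groups. None of the 6 markers that could be tested reached an unadjusted p-value under 0.05. Krt19, the keratin that defines these cells, was at 0.466 to 1.61 CPM in control and 0.447 to 2.51 CPM in heat stress, and Cftr, the chloride channel of their apical membrane, was listed at 0 in all 3 control libraries and at 0.0697 to 0.149 CPM in heat stress, from at most 2 counts. Most of the summed level was Spp1, with 47.8 ± 18.7 CPM in control and 40.6 ± 2.85 CPM in heat stress.

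The genes most like Slc10a2 across the 6 liver libraries, by Pearson correlation of log2 CPM, were Ccdc149, Dnajc3, Zfc3h1, Dpy19l1 and Dnaja1, with r from 0.983 to 0.994. The points share library and group, so the correlation includes the difference between groups. Dnajc3, a co-chaperone of the endoplasmic reticulum, averaged 268 ± 31.1 CPM in control and 185 ± 17.8 CPM in heat stress (log2 fold change -0.54). Dnaja1, a cytosolic co-chaperone of HSP70, averaged 265 ± 23.7 and 184 ± 21.9 CPM (log2 fold change -0.53). Since they were chosen for their likeness to a gene whose groups do not overlap, their lower levels in heat stress follow from the choice and are given as a description.

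The libraries of both groups overlapped for the hepatocyte uptake carriers. Slc10a1 (chr12:80953183-80968705, minus strand) encodes NTCP, which imports conjugated bile acids with sodium. Its level was 616, 422 and 434 CPM in control and 580, 624 and 569 CPM in heat stress, so that control replicate 1 lay among the heat stress libraries and the other controls below them. The means were 490.5 ± 109 and 591 ± 28.9 CPM, with a fold of 1.20 (95% interval 0.875 to 1.66, edgeR p-value 0.223, adjusted 0.943). Without control replicate 1 the log2 fold change moved from 0.27 to 0.45, with an unadjusted p-value of 0.0347, and without both muscle-bearing libraries to 0.41. It was 0.17 without control replicate 2 and 0.19 without control replicate 3.

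Slco1b2 (chr6:141629518-141686646, plus strand) encodes an organic anion transporter that takes up unconjugated bile acids, bilirubin and many drugs without sodium. It measured 848, 1386 and 1391 CPM in control and 1146, 1042 and 1070 CPM in heat stress. The heat stress libraries lay between the lowest and the other controls. The fold was 0.899 (95% interval 0.629 to 1.29, edgeR adjusted p-value 0.965). The log2 fold change of -0.15 rested on single libraries, with -0.37 without control replicate 1, -0.34 without both muscle-bearing libraries, -0.056 with the muscle score as a covariate, -0.044 without control replicate 2 and -0.042 without control replicate 3, and no setting brought the unadjusted p-value under 0.05. Across the 6 libraries the carriers ran in opposite directions, with r = -0.89 between Slc10a1 and Slco1b2, and control replicate 1 was at the end of both scales within its group.

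At the canalicular membrane, Abcb11 encodes BSEP, the ATP-driven pump that sets bile salt export and a classical target of FXR. It occupies chr2:69238282-69342616 on the minus strand. The bases before its start are printed because they hold the hexamer AGGTCA that nuclear receptors bind, which stands in capitals as its reverse complement. The source is RefSeq on GRCm38.p6 (chr2:69342617-69342866, minus strand, 5′ to 3′).
Abcb11 upstream: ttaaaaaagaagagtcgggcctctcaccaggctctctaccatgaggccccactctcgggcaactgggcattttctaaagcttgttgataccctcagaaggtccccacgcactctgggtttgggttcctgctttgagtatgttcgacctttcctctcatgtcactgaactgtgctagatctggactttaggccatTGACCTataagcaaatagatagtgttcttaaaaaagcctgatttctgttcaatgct
That hexamer was found on either strand in 16.3% of all promoter windows and in windows of 5 of the 10 genes, Slc10a1, Slco1b2, Abcb11, Abcc2 and Nr1h4. The inverted repeat of AGGTCA and TGACCT with 1 base between them, the IR-1 consensus for FXR with its partner RXR, was present in 3 of 32851 windows (0.00913%) and in none belonging to the 10 genes, which says only that these letters are not in these windows. The hexamer TCAAGG of the LRH-1 type occurred in 14.4% of all windows and in those of Abcc2 and Nr0b2.

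Abcb11 measured 597, 534 and 513 CPM in control and 416, 510 and 443 CPM in heat stress livers. The groups did not overlap, but the closest libraries, control replicate 3 and heat replicate 2, differed by less than the spread within either group. The means were 548 ± 43.6 and 456 ± 48.6 CPM, a fold of 0.833 with a 95% interval of 0.627 to 1.11 (edgeR p-value 0.182, adjusted 0.936). The log2 fold change of -0.26 ranged from -0.35 to -0.21 when single libraries were left out.

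Abcb4 encodes the floppase that delivers phosphatidylcholine into bile, where it forms micelles with bile salts (chr5:8893717-8959231, plus strand). Its values were 183.5, 147 and 153 CPM in control and 151, 216 and 228 CPM in heat stress, with heat replicate 1 among the controls. The fold was 1.23 (95% interval 0.891 to 1.70, edgeR adjusted p-value 0.936), and the log2 fold change of 0.30 ran from 0.17 without heat replicate 3 to 0.44 without heat replicate 1. Abcc2 encodes MRP2, which exports conjugated bilirubin and glutathione (chr19:43782192-43840740, plus strand). It measured 234, 165 and 245 CPM in control and 192, 272 and 215 CPM in heat stress, with interleaved groups and a fold of 1.05 (0.75 to 1.48, adjusted p-value 0.984). The sign of the small Abcc2 difference turned when control replicate 2, heat replicate 2 or both muscle-bearing libraries were left out.

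**Figure D2:**
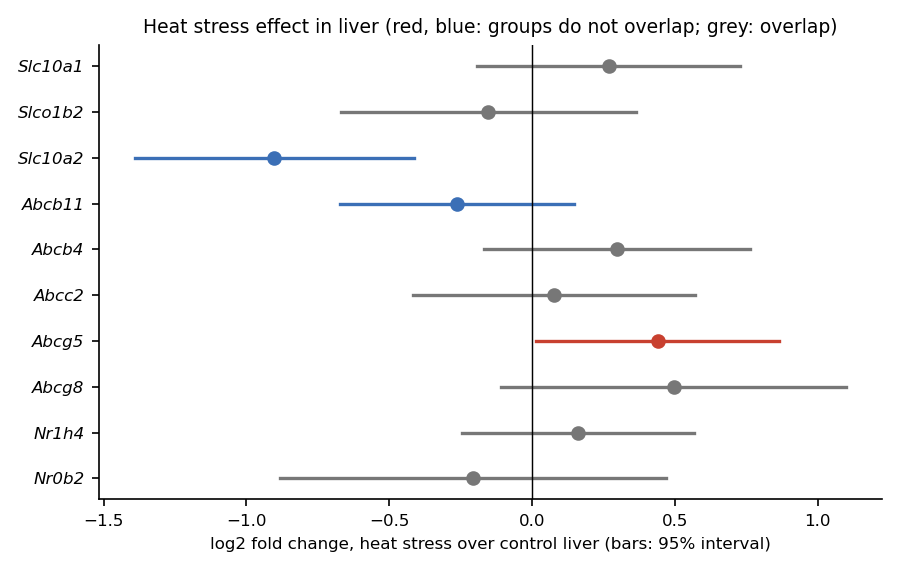
Log2 fold change of the 10 genes, heat stress minus control liver, from edgeR, with 95% confidence intervals (n = 3 and 3). Genes whose groups do not overlap are red (higher) or blue (lower) and the others grey. The intervals of Slc10a2 and Abcg5 exclude 0, those of the other 8 include it, and no gene passed the adjusted threshold.

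Abcg5 and Abcg8 encode partner subunits of a heterodimer, ABCG5/ABCG8, which pumps cholesterol and plant sterols into bile. The genes lie head to head on chromosome 17, Abcg5 on the minus strand (chr17:84658234-84683011) and Abcg8 on the plus strand (chr17:84676302-84700333 with all transcripts). Between the RefSeq starts of the divergent transcripts, 84683011 and 84683121, lie 109 bases that both genes share as upstream sequence. This stretch is printed because it holds 2 copies of the GATA site AGATAA, set in capitals and chosen after the sequence had been seen. It is taken from RefSeq on GRCm38.p6 (chr17:84683012-84683120) and written 5′ to 3′ on the minus strand, the strand of Abcg5.
Abcg5 and Abcg8 shared upstream: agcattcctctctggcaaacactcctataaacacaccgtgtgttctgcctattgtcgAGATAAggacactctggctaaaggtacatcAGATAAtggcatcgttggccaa
On either strand AGATAA was found in 11.2% of all promoter windows, and among the 10 genes in those of Abcg5, Abcg8 and Nr1h4.

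Abcg5 measured 84.9, 70.1 and 76.0 CPM in control livers, from 1315, 860 and 815 counts. In heat stress livers it measured 87.7, 98.7 and 127 CPM, from 1178, 1416 and 1610 counts. The groups did not overlap, although control replicate 1 and heat replicate 1 were nearly equal. The means were 77.0 ± 7.43 and 104.5 ± 20.3 CPM, a fold of 1.36 with a 95% interval of 1.01 to 1.82 and a log2 fold change of 0.44 with a standard error of 0.19 (edgeR p-value 0.0439, adjusted 0.846). The unadjusted p-value was under 0.05 in 8 of the 16 alternative settings. Without heat replicate 3, the highest library, the log2 fold change was 0.26 with a p-value of 0.218, and without both muscle-bearing libraries it was 0.54 with a p-value of 0.0127.

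Abcg8 measured 78.0, 43.7 and 48.5 CPM in control and 55.8, 94.3 and 90.1 CPM in heat stress. Control replicate 1 lay among the heat stress libraries and heat replicate 1 close to the lower controls. The fold was 1.41 (95% interval 0.927 to 2.15, edgeR p-value 0.0976, adjusted 0.916). Without control replicate 1 the log2 fold change went from 0.50 to 0.79 with a p-value of 0.00426, and without both muscle-bearing libraries it was 0.65 with a p-value of 0.00645. It was 0.34 (p-value 0.278) without control replicate 2, 0.36 (0.255) without heat replicate 2 and 0.39 (0.274) without heat replicate 3.

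Both subunits were compared as a ratio within each library. The ratio of Abcg5 to Abcg8 in CPM per kilobase of exon was 1.5, 2.22 and 2.17 in control livers, against 2.17, 1.45 and 1.95 after heat stress, and it was lowest in the library with muscle transcripts within each group. The size of the ratio depends on the exon lengths used, while its order among libraries does not. Both genes correlated across the 6 libraries (r = 0.83 on log2 CPM). Their GENCODE M21 exons overlap by 82 bases on opposite strands, of 2712 and 3749 exon bases, and whether the authors' counting used strand is not stated in the sources used here, so a small part of the reads could belong to either.

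The r of largest size among the 45 pairs of the 10 genes was that of Abcb4 with Abcg8 (0.955), followed by Slc10a1 with Slco1b2 (-0.89) and Abcb4 with Abcg5 (0.881). Slc10a2 ran against Slc10a1 (-0.87) and Abcg8 (-0.83). All points of a pair share library and depth, and these values include the difference between groups. They were not computed without the muscle-bearing libraries, which would leave too few points.

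**Figure D3:**
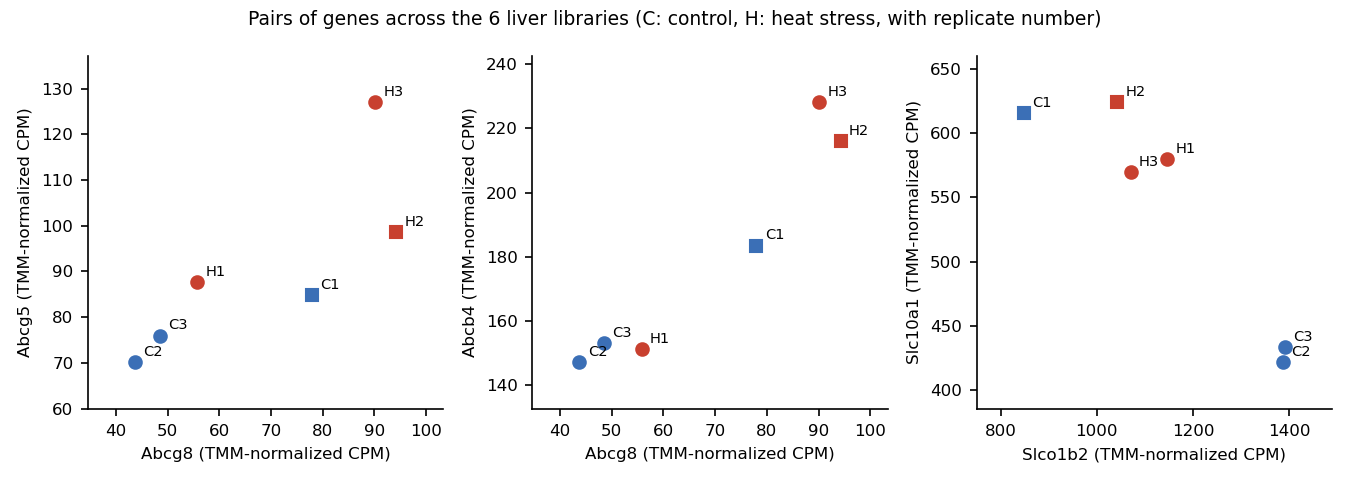
TMM-normalized CPM of 3 gene pairs in the 6 liver libraries (linear axes that do not start at 0), with control (C) in blue and heat stress (H) in red and the replicate number beside each point. Squares mark control replicate 1 and heat replicate 2, the libraries with muscle transcripts. Abcg8 runs with Abcg5 (r = 0.83 on log2 CPM) and Abcb4 (r = 0.955), and Slco1b2 runs against Slc10a1 (r = -0.89).

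Of the regulators, Nr1h4 (chr10:89454234-89533585, minus strand) encodes the bile acid receptor FXR. It measured 118, 109.8 and 137.5 CPM in control and 122, 130.0 and 156 CPM in heat stress, with overlapping groups and a fold of 1.12 (95% interval 0.844 to 1.48, edgeR adjusted p-value 0.951). Its log2 fold change of 0.16 ran from 0.037 without heat replicate 3 to 0.26 without control replicate 3. Nr0b2 (chr4:133553376-133556536, plus strand) encodes SHP, the repressor that FXR induces. It was more variable, with 45.1, 41.6 and 22.9 CPM in control and 21.7, 29.8 and 43.7 CPM in heat stress, so that each group held high and low livers. The fold was 0.866 (95% interval 0.542 to 1.38, adjusted p-value 0.965), and the standard error of 0.30 on the log2 scale was the highest of the 10 genes. Its log2 fold change of -0.21 ran from -0.52 to -0.011 with single libraries left out and was 0.0038 without both muscle-bearing libraries. Cyp7a1, the rate-limiting enzyme of bile acid synthesis and a target of SHP repression, was looked up after its values had been seen. It ranged from 86.4 to 119 CPM in control and from 36.0 to 140 CPM in heat stress (log2 fold change -0.14, p-value 0.73).

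**Figure D4:**
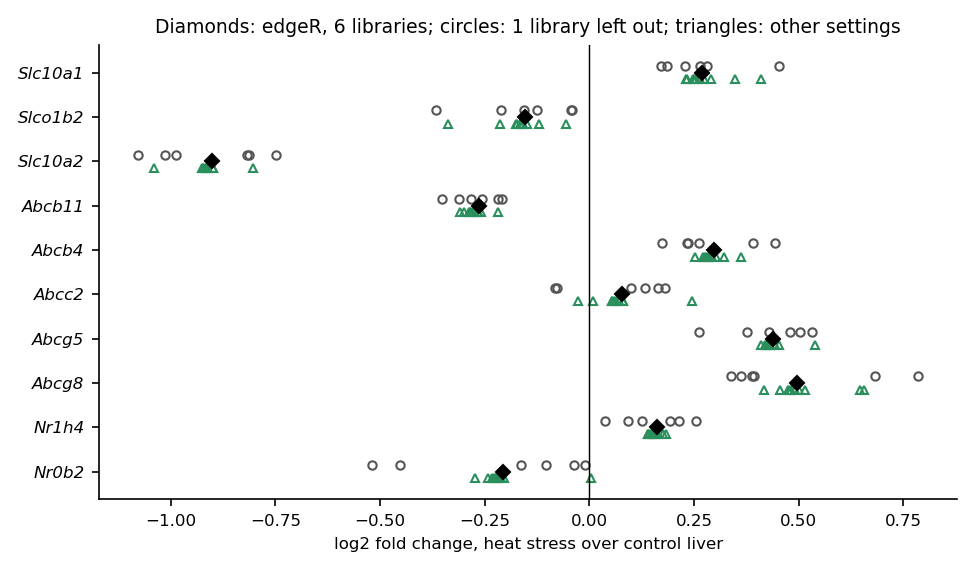
Log2 fold change of each of the 10 genes, heat stress over control liver, from edgeR on all 6 libraries (black diamonds), with 1 library left out in turn (6 open circles) and under the 10 other settings (green triangles). Slc10a2 lies between -1.08 and -0.75 in all of them, whereas Abcc2 and Nr0b2 have settings on both sides of 0.

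The remaining genes of the pathway were read from 4 lists, and none of their genes passed the adjusted threshold. Of the 16 genes of bile acid synthesis and conjugation 15 were tested. None had an unadjusted p-value under 0.05, 2 were lower without overlap and none higher (5.73% and 5.38% of all genes), and the median log2 fold change was -0.083. Cyp39a1, an oxysterol hydroxylase, had the smallest p-value (23.5 ± 3.30 CPM in control, 17.2 ± 3.75 CPM in heat stress, log2 fold change -0.45, edgeR p-value 0.055). Cyp2c70, which makes the muricholic acids particular to rodents, averaged 579 ± 61.6 and 452 ± 71.9 CPM without overlap (-0.36, p-value 0.104). Hsd3b7, which acts on the sterol ring early in synthesis, averaged 514 ± 75.5 and 415 ± 41.8 CPM (-0.31, p-value 0.142). The other gene without overlap, looked up after its values were seen, was Baat, the amino acid conjugating enzyme (334 ± 17.0 and 280.3 ± 17.3 CPM, -0.25, p-value 0.175).

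Of 17 further transporters 14 were tested, and an unadjusted p-value under 0.05 was found for 1 with higher and 1 with lower levels, beside 2.97% and 2.87% of all genes tested. Groups did not overlap for 2 with higher and 1 with lower levels, beside 5.38% and 5.73% of all genes. The median log2 fold change was 0.23. Npc1, which moves cholesterol out of lysosomes, was at 51.8 to 85.5 CPM in control and 93.7 to 123 CPM in heat stress (log2 fold change 0.62 with a standard error of 0.23, edgeR p-value 0.0205, adjusted 0.779). Atp8b1, the phospholipid flippase of the canalicular membrane, was at 34.2 to 43.6 CPM in control and 26.9 to 30.6 CPM in heat stress (-0.48 with a standard error of 0.17, p-value 0.0171, adjusted 0.774). Slco1a4, an organic anion uptake carrier, averaged 80.8 ± 3.67 and 100.6 ± 9.94 CPM without overlap (0.32, p-value 0.0822). The basolateral exporter Slc51a was listed at 0 in all 6 liver libraries and its partner Slc51b had 3 to 12 counts, so neither was tested.

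Of 15 further regulators 14 were tested and none had an unadjusted p-value under 0.05 or groups without overlap, with a median log2 fold change of 0.15. The smallest p-values belonged to Nr1i3, the xenobiotic receptor CAR (123 ± 19.3 and 175 ± 66.2 CPM, 0.51, edgeR p-value 0.0821), Ppara, the fatty acid receptor (158 ± 31.5 and 208 ± 22.3 CPM, 0.39, p-value 0.0844), and the hepatic transcription factor Foxa2 (23.1 ± 5.24 and 17.7 ± 3.77 CPM, -0.38, p-value 0.116). All 8 genes of canalicular anchoring and trafficking were tested, and none had an unadjusted p-value under 0.05 or separate groups. Their median log2 fold change was -0.078. Among the smallest p-values were those of the membrane anchor Rdx (log2 fold change -0.18, edgeR p-value 0.324) and the recycling GTPase Rab11a (-0.17, p-value 0.415).

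Per kilobase of merged exon, the uptake carriers led in control liver. These lengths join the exons of all GENCODE M21 transcripts of a gene. The annotation used for counting is not given, and the order depends on the lengths. Slco1b2 was at 245 ± 63.3 and Slc10a1 at 223 ± 49.4 CPM per kilobase, and their libraries overlapped. Abcb11 followed at 106.5 ± 8.48 and Nr1h4 at 52.9 ± 6.16 CPM per kilobase, each apart from its neighbours in the order. Nr0b2 at 32.3 ± 10.5, Abcg5 at 28.4 ± 2.74, Abcc2 at 25.2 ± 5.09, Abcb4 at 17.2 ± 2.08 and Abcg8 at 15.1 ± 4.95 CPM per kilobase formed a run in which each overlapped the next. Slc10a2 was lowest, at 8.79 ± 1.79 CPM per kilobase in control and 4.70 ± 0.903 in heat stress, below every library of Abcg8 in control.

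All 10 genes were higher in control liver than in control brain by edgeR's quasi-likelihood test at an adjusted p-value under 0.05, where 35.5% of the 15213 genes tested were called higher in liver and 78.3% in either direction. In brain, 9 of the 10 genes had at most 11 counts in any of the 6 libraries. Slc10a2 and Abcg8 had 0 counts in all 6, which allows up to 0.206 to 0.284 CPM in a library by a limit of 3 counts. For folds between tissues, CPM on library size alone was used, where that limit was at most 0.252 CPM in a control brain library. On that scale control liver was at least 1960-fold higher for Slc10a1, 2190-fold for Abcb11, 226-fold for Abcg8 and 146-fold for Slc10a2. Slco1b2 with 5, 5 and 11 counts in control brain was 2160-fold higher in liver (95% counting interval 1420 to 3500), and Nr1h4 with 5, 2 and 1 counts was 586-fold higher (297 to 1360). These folds depend on how the tissues are scaled to each other. With TMM across both tissues, as in the test, the median log2 difference of all genes was -0.20 and 45.4% of calls were higher in liver, against -1.3 and 23.1% on library size alone. The 10 genes were called higher in liver under both scalings.

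Abcb4 was the exception in brain, with 83, 98 and 76 counts in control and 77, 107 and 88 in heat stress. These corresponded to 5.69, 8.55 and 6.15 CPM and to 7.11, 9.58 and 8.31 CPM. The groups overlapped, as did those of all but 24.9% of genes in brain (log2 fold change 0.30 with a standard error of 0.22, edgeR p-value 0.203, adjusted 0.459). With single brain libraries left out, the log2 fold change ran from 0.18 without control replicate 1 to 0.49 without control replicate 2 (edgeR p-values 0.459 and 0.0538). In that brain comparison edgeR called 0 of 14806 genes (0%), 2969 genes (20.1%) had an unadjusted p-value under 0.05, and DESeq2 called 618 of 7769 (7.95%). The control liver level of Abcb4 was 24.7-fold that of control brain on library size alone (95% counting interval 21.8 to 28.1) and 53.3-fold with TMM across both tissues (47.0 to 60.6). The heat stress effect on Abcb4 in liver minus that in brain was -0.02 on the log2 scale (95% interval -0.68 to 0.64, edgeR p-value 0.947), in a test that called 1 of 15824 genes (0.00632%). Summed endothelial markers were 56.7 to 106.5 CPM in control and 36.5 to 51.2 CPM in heat stress brains. Summed choroid plexus markers were 1245 to 2473 and 259 to 1126 CPM, also without overlap. The part of either cell type in the Abcb4 values was not tested.

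**Figure D5:**
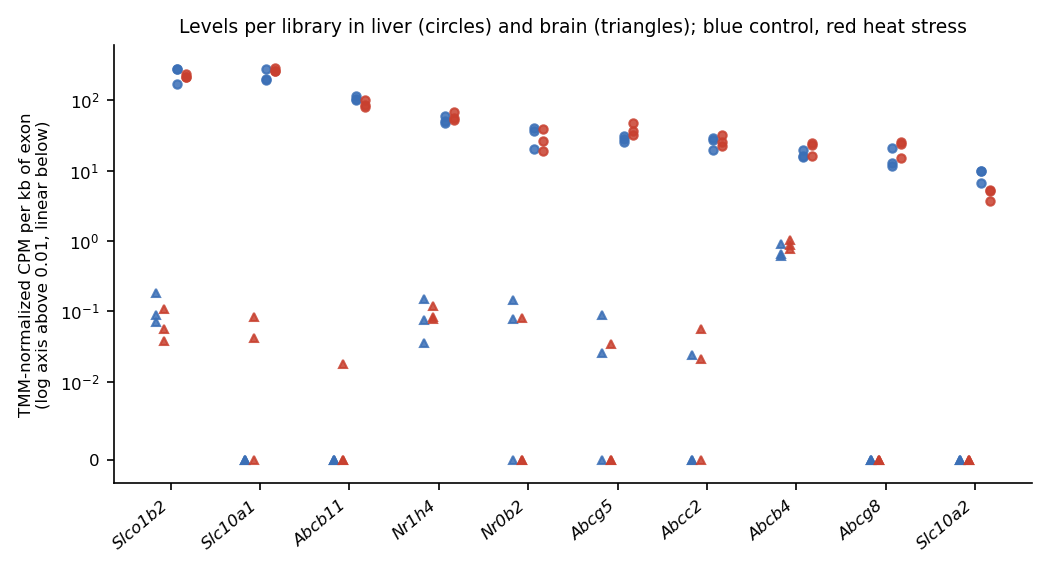
Level of each gene (TMM-normalized CPM per kilobase of merged exon, log axis above 0.01 and linear below) in livers (circles) and brains (triangles) of control (blue) and heat stress (red) mice, 1 point per library. Liver and brain were normalized separately. Slco1b2 and Slc10a1 lead in liver, and Abcb4 is the only 1 of the 10 genes with more than 11 counts in any brain library.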

How the data were processed

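Brain and liver messenger RNA of control and heat stress mice was sequenced, 3 libraries per group and 12 in all, each a replicate. The authors deposited raw read counts for 25239 gene symbols. Per the labels, reads were trimmed with Trimmomatic 0.39, aligned to mm10 with HISAT2 2.2.1 and counted with featureCounts (Subread 2.0.1), whereas another passage of the methods names Tophat2 and HTSeq. The use of strand, the annotation and the treatment of shared reads are not given in the sources used here. The authors' tables of their own comparisons (log2 fold changes and p-values) were not used.

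The counts were analysed in R 4.3.3 with edgeR 4.0.16 (TMM, filterByExpr at 10 counts minimum and 15 in total, robust quasi-likelihood test, Benjamini-Hochberg adjustment over all genes tested), separately for liver, brain and the control tissues. The difference of effects came from a fit of 4 groups. Neither that fit nor the test between control tissues had a term for the mouse in the main setting, so libraries were treated as independent. DESeq2 1.42.0 was an alternative, and the muscle score entered on a log2 scale. The threshold was an adjusted p-value of 0.05, and correlations were taken on log2 CPM (prior count 2). A value compared between 3 and 3 libraries cannot reach an exact permutation p-value under 0.1. The procedure was tested on simulated data whose changes were larger than those of the 10 genes. Such data do not show whether changes of the sizes seen here could be found. No 2 libraries of a group agreed within sampling noise. The counting intervals of the folds between tissues and the limits on counts cover counting error only. The intervals of the heat stress effects, and of their difference between tissues, come from edgeR's standard errors. Those intervals and the p-values include the spread between these mice.

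Positions and exon lengths are from GENCODE M21 (GRCm38), to which 24366 of the symbols matched, and sequences are from RefSeq GRCm38.p6. Named were all 10 genes, from each pathway list every gene with an unadjusted p-value under 0.05 and at least the 3 smallest p-values, and the 5 genes most like the gene with the smallest p-value. An item that this rule covers is not reported here. The genes and lists were chosen with earlier results of these data known.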

Additional observations from a re-analysis of the deposited data

How the results depend on the processing

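In liver, against 0 genes past the threshold, DESeq2 gave 61, no filter on low counts 8, upper-quartile normalization 2, a fit of all 12 libraries 14, the muscle score as a covariate 72, the suffix as a covariate 6 and leaving out both muscle-bearing libraries 81. Leaving out single libraries gave 0 to 25, with 25 without control replicate 1. Of the 10 genes, 1 (Slc10a2) passed without both muscle-bearing libraries and 1 (Slc10a2) with the muscle score, and 0 to 1 when single libraries were left out. Against 2 of the 10 with an unadjusted p-value under 0.05, RLE normalization, no filter and all 12 libraries gave 1 each. Leaving out both muscle-bearing libraries, the muscle score as a covariate and the suffix as a covariate gave 3 each. Single libraries left out gave 1 to 4, with 4 without control replicate 1. The replicate block gave 1 liver gene past the threshold and 1 of the 10 genes under the unadjusted 0.05. Same-numbered libraries did not deviate together (correlations -0.58, -0.51 and -0.089 in liver), and 0 of 6 liver libraries correlated best with their own number. Between control liver and control brain 6 of 6 did, a hint from the data and not from the design (0.22, 0.18 and 0.094). Scaling by library size alone, tried after seeing the data, called 12659 genes between the control tissues against 11915. In brain DESeq2 called 618 genes against 0. For the difference of effects, RLE, no filter and the replicate block gave 0 genes against 1, DESeq2 48 and single libraries left out 0 to 4. Directions turned only near 0. Abcc2 went from 0.077 to -0.082 without control replicate 2, -0.077 without heat replicate 2 and -0.026 without both muscle-bearing libraries, where Nr0b2 went from -0.21 to 0.0038. The liver minus brain difference of Abcb4 went from -0.021 to 0.015 with RLE, 0.013 with DESeq2, 0.036 with no filter and -0.16 to 0.15 with single libraries left out. The cause was not tested. The other 203 values of single genes kept their direction and side of the threshold. With 3 libraries a group, standard errors of 0.18 to 0.30 on the log2 scale limited what could be told apart for the 10 genes in liver, and counts near 0 did so in brain.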
